A study of Mus musculus with 18 samples.

Results

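The genes Gabra2, Gabra3, Gabra4, Gabra5, Gabrb1, Gabrb2 and Gabrd encode α, β and δ subunits of the GABA-A receptor. All array probe sets annotated to these 7 genes were taken, whatever their values, which gave 15 of the 45037 probe sets on the array, for 7 of 17097 annotated genes. All 15 were among the 27022 probe sets that passed the filter on low values and were tested. The tissue was a joint dissection of cortex and striatum from 3 TgCPEB4∆4 mice and 3 CTRL mice at 6 weeks of age. CPEB4 is an RNA-binding protein that recognises cytoplasmic polyadenylation elements in the 3′ untranslated region of mRNAs and alters the length of their poly(A) tails, and TgCPEB4∆4 is a transgene for a form of CPEB4 that lacks a neuronal microexon. The labels name neither the promoter that drives the transgene nor the cells that express it, and they do not say which alleles CTRL mice carry. Each mouse gave 3 arrays. One held total RNA (INPUT), and the others held RNA from a poly(U) column, on which mRNA is retained by its poly(A) tail. RNA released at 25% formamide was enriched for short tails (WASH) and RNA released at 90% formamide for long tails (ELUTED).

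GABA is the main inhibitory transmitter of the forebrain, and the GABA-A receptor is the chloride channel that it opens. Each receptor is a ring of subunits around the pore, usually of α and β subunits together with a γ or a δ subunit, and GABA binds where a β subunit meets an α subunit. The α subunit sets much of the receptor's sensitivity and location: α2 and α3 are found mainly at synapses, whereas receptors with α4 and δ, or with α5, lie largely outside synapses and carry tonic inhibition. Receptors that pair α4 with δ are abundant in striatal medium spiny neurons. The length of the poly(A) tail in the cytoplasm is one of the features of an mRNA that bear on its translation and stability.

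Values are log2 expression per probe set, called levels here, and a difference of 1 is a doubling. The tail ratio is the long-tail level minus the short-tail level of the same mouse, so that a positive tail ratio marks a transcript with a larger share in the long-tail fraction and a negative one a larger share in the short-tail fraction. Levels of different probe sets cannot be set against each other, because probes differ in how well they hybridise. Tests were two-sided moderated tests in limma, adjusted by the Benjamini-Hochberg method over all 27022 probe sets, and a probe set passed at an adjusted p under 0.05.

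Markers of the cell types of the dissected tissue were present, on lists chosen with earlier results of these data known. Of the 12 striatal medium spiny neuron markers, 9 had a probe set annotated to that gene alone. Their mean total RNA level was 8.72 to 8.91 in TgCPEB4∆4 mice and 8.95 to 9.11 in CTRL mice, with no overlap. Of the 10 cortical excitatory neuron markers, 9 had such a probe set, at 8.10 to 8.66 in TgCPEB4∆4 mice and 8.45 to 8.65 in CTRL mice. Markers of some non-neuronal cells also stood apart. The 8 astrocyte markers averaged 9.63 to 10.50 in TgCPEB4∆4 mice and 9.48 to 9.52 in CTRL mice, and the 7 meningeal and fibroblast markers 7.06 to 7.54 in TgCPEB4∆4 mice and 6.74 to 6.85 in CTRL mice, both without overlap. The ranges overlapped for markers of oligodendrocytes (9.85 to 9.98 in TgCPEB4∆4 mice, 9.91 to 10.04 in CTRL mice), microglia (8.51 to 9.31 in TgCPEB4∆4 mice, 8.45 to 8.52 in CTRL mice) and endothelium (8.08 to 8.36 in TgCPEB4∆4 mice, 7.88 to 8.10 in CTRL mice). They also overlapped for the 10 interneuron markers (9.84 to 10.05 in TgCPEB4∆4 mice, 9.90 to 9.92 in CTRL mice). The same held for the 6 hippocampal markers (7.03 to 7.09 in TgCPEB4∆4 mice, 7.06 to 7.18 in CTRL mice). Of the 9 markers of thalamus and cerebellum, 7 had such a probe set. These averaged 6.48 to 6.60 in TgCPEB4∆4 mice and 6.52 to 6.62 in CTRL mice. At most 2 of them stood above the highest nonspecific control on any total RNA array, but 4 to 5 did on short-tail and 3 to 5 on long-tail arrays. Of the 9 cortical excitatory markers, 5 to 6 stood above it in total RNA of TgCPEB4∆4 mice and 6 to 7 in that of CTRL mice. The gene that the transgene is named for, Cpeb4, read 8.58, 8.55 and 7.99 in total RNA of TgCPEB4∆4 mice and 8.44, 8.36 and 8.30 in CTRL mice at probe set 1449931, so that probe set did not separate the genotypes, and whether its probes match the transgene's mRNA was not tested. One array stood apart: the highest nonspecific control read 7.30 on the long-tail array of CTRL mouse 1, against 5.53 to 6.29 on the other long-tail arrays. Of the 15 subunit probe sets, 11 were above the highest nonspecific control on all 18 arrays. The other 4 were both Gabrd probe sets, Gabra5, and Gabra4 probe set 1433707.

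**Figure D1:**
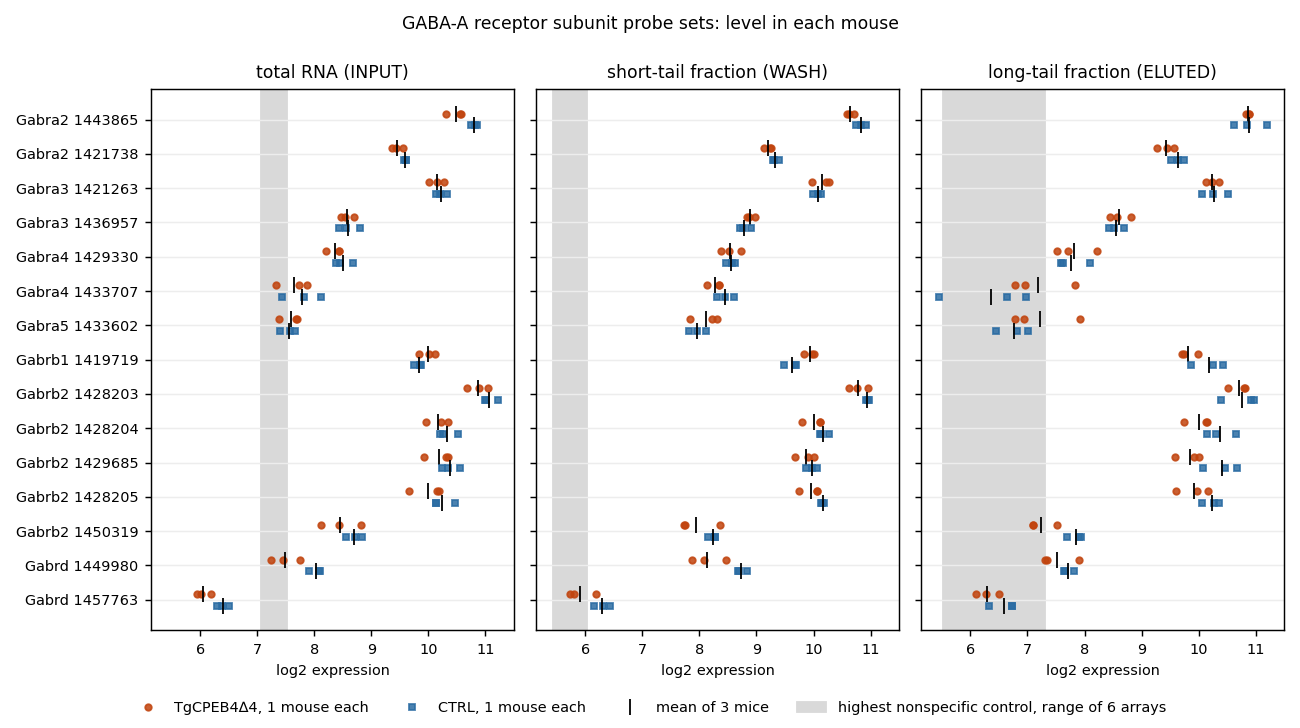
Log2 level (horizontal axis) of the 15 subunit probe sets in each mouse, with 1 panel for each preparation. Circles are TgCPEB4∆4 mice, squares CTRL mice, ticks the mean of 3 mice, and the grey band the range of the highest nonspecific control over the 6 arrays of that panel; Gabra4 1433707, Gabra5, Gabrb2 1450319 and Gabrd enter the band in at least 1 panel, and both probe sets of Gabra2 and of Gabrd are lower in all 3 TgCPEB4∆4 mice in total RNA.

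Several subunit genes lie in clusters of head-to-head or neighbouring genes (RefSeq, build GRCm38.p6). On chromosome 5, Gabrg1 (70751047 to 70842617), Gabra2 (70958392 to 71095849), Gabra4 (71569734 to 71658308) and Gabrb1 (71657921 to 72149572) follow each other. Gabra4 is read from the minus strand and Gabrb1 from the plus strand, and their annotated 5′ ends overlap by 388 bases, so the start of each gene lies within the other. Gabra5 lies on chromosome 7 (57407669 to 57591016), 20453 bases from Gabrg3. Gabrb2 lies on chromosome 11 (42419515 to 42632591), 98442 bases from Gabra6. Gabra3 is on chromosome X (72432676 to 72656919), between Gabre and Gabrq, and Gabrd is on chromosome 4 (155384979 to 155398098). Promoter sequence from RefSeq was at hand for 6 of the 7 genes. The 30 bases that precede the annotated starts of the head-to-head pair are shown because these neighbours had tail ratios of opposite sign in CTRL mice. They are written 5′ to 3′ on the strand of the gene, with CG dinucleotides in capitals. The Gabra4 stretch is chr5:71658309-71658338 on the minus strand and the Gabrb1 stretch chr5:71657891-71657920 on the plus strand.
Gabra4: tcctcaaacaacctatgagaaaggctcttc
Gabrb1: agtggctccCGCGgCGtgCGcacactCGCG
The Gabrb1 stretch held 6 CG dinucleotides and the Gabra4 stretch 0. In the whole 300-base windows around the starts there were 25 CG dinucleotides for Gabrb1 and 12 for Gabra4, against a median of 7 over all 32851 promoter windows of that length, of which 94.57% held at least 1 (CG reads the same on both strands). A second annotated Gabrb1 start, at position 71699932, had 9 in its window. These counts describe the sequence alone.

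The α subunits differed in tail ratio from gene to gene and, for Gabra3, between probe sets. Gabra4 and Gabra5, subunits of largely extrasynaptic receptors, lay toward short tails in both genotypes at all 3 of their probe sets. Gabra2 and Gabra3 had mean tail ratios between −0.28 and 0.31, and 0 of their 4 probe sets passed in TgCPEB4∆4 mice and 1 in CTRL mice. Over all 27022 probe sets, 12.7% passed toward long and 19.1% toward short tails in TgCPEB4∆4 mice, and 27.6% and 35.4% in CTRL mice. Among the α subunit probe sets, Gabra4 1433707 had the mean tail ratio furthest from 0 in both genotypes. Its levels were 8.13, 8.35 and 8.35 in the short-tail fraction of TgCPEB4∆4 mice and 8.61, 8.45 and 8.31 in that of CTRL mice. In the long-tail fraction they were 6.78, 6.96 and 7.82 in TgCPEB4∆4 mice and 5.45, 6.97 and 6.63 in CTRL mice. Every mouse of both genotypes was thus lower in its long-tail than in its short-tail fraction. The mean tail ratio was −1.09 ± 0.32 in TgCPEB4∆4 mice (SE, n = 3, adjusted p = 0.0335) and −2.10 ± 0.32 in CTRL mice (SE, n = 3, adjusted p = 0.00118), a factor of 2.12 and of 4.30 toward short tails. The CTRL value rested in part on CTRL mouse 1, whose long-tail level of 5.45 was below the 7.30 of that array's highest nonspecific control, and without that mouse it was −1.58 (adjusted p = 0.000236). The TgCPEB4∆4 value passed neither without TgCPEB4∆4 mouse 1 nor without mouse 2 (adjusted p = 0.191 and 0.209), and it missed the threshold without the filter on low values (adjusted p = 0.0509) and with an intensity trend in the fit (adjusted p = 0.0534).

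The other Gabra4 probe set, 1429330, was less far from 0, with tail ratios of −0.67, −1.0 and −0.51 in TgCPEB4∆4 mice and −0.52, −0.88 and −0.95 in CTRL mice. The genotypes overlapped, and both means passed, at −0.72 ± 0.15 in TgCPEB4∆4 mice (adjusted p = 0.0111) and −0.79 ± 0.15 in CTRL mice (adjusted p = 0.00282). The 2 probe sets of Gabra4 therefore gave the same direction. Without CTRL mouse 1 the CTRL mean of 1429330 was −0.92, beside the −1.58 of 1433707.

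Gabra5, at probe set 1433602, had tail ratios of −0.90, −1.43 and −0.40 in TgCPEB4∆4 mice and −1.67, −1.13 and −0.80 in CTRL mice. The mean was −0.91 ± 0.22 in TgCPEB4∆4 mice (adjusted p = 0.0192) and −1.20 ± 0.22 in CTRL mice (adjusted p = 0.00259). Its long-tail level in CTRL mouse 1, 6.44, was again below the highest nonspecific control of that array, and without that mouse the CTRL mean was −0.97 (adjusted p = 0.00359). Relative to total RNA of the same mouse, Gabra5 was higher in the short-tail fraction of all 3 TgCPEB4∆4 mice, by 0.46, 0.54 and 0.62, and of all 3 CTRL mice, by 0.53, 0.29 and 0.41. Total RNA of TgCPEB4∆4 mouse 1 and CTRL mouse 3 was not above the highest nonspecific control at this probe set.

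Gabra2, a synaptic α subunit, leaned the other way. At probe set 1421738 the tail ratios were 0.22, 0.32 and 0.14 in TgCPEB4∆4 mice and 0.33, 0.35 and 0.23 in CTRL mice, positive in 6 of 6 mice. The CTRL mean of 0.31 ± 0.12 passed narrowly (adjusted p = 0.0476) and did not pass when any 1 mouse of either genotype was left out. The TgCPEB4∆4 mean was 0.23 ± 0.12 (adjusted p = 0.163). At the other Gabra2 probe set, 1443865, the ratios were 0.24, 0.17 and 0.25 in TgCPEB4∆4 mice, against −0.22, 0.27 and 0.10 in CTRL mice, and neither mean passed. For Gabra3, whose subunit is found in deep cortical layers, probe set 1421263 had mean tail ratios of 0.09 ± 0.13 in TgCPEB4∆4 mice and 0.20 ± 0.13 in CTRL mice, and probe set 1436957 −0.28 ± 0.12 in TgCPEB4∆4 mice and −0.24 ± 0.12 in CTRL mice. The 2 Gabra3 probe sets differed in sign, 1436957 was negative in 6 of 6 mice, and no mean passed (lowest adjusted p = 0.114).

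**Figure D2:**
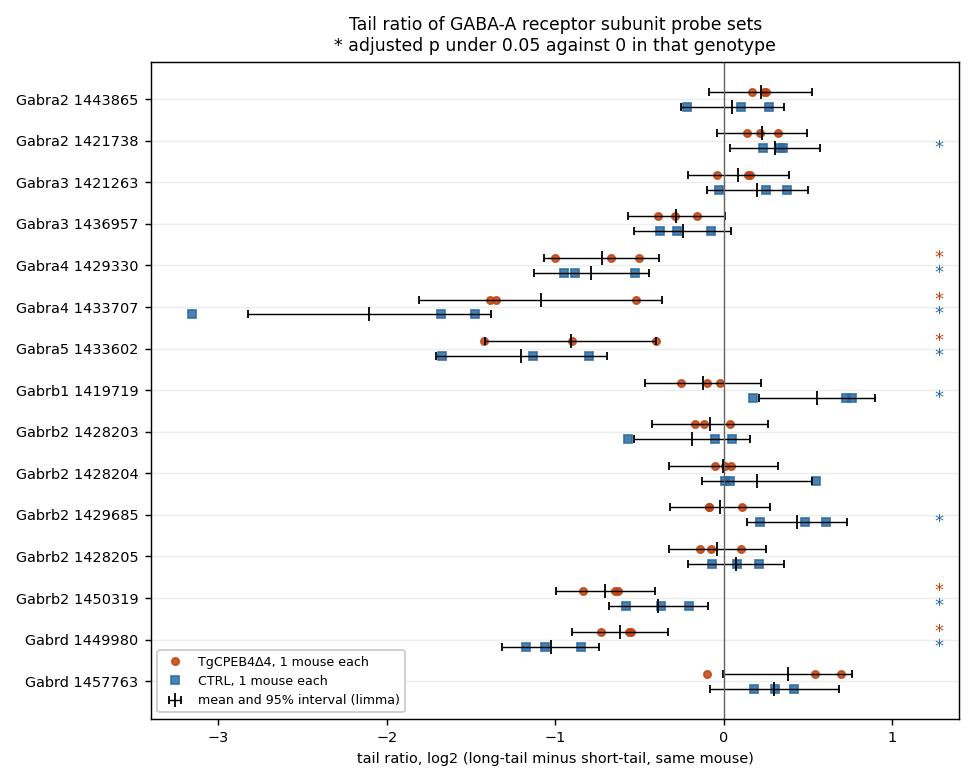
Tail ratio (horizontal axis, log2) of the 15 subunit probe sets for each mouse, with TgCPEB4∆4 mice as circles above CTRL mice as squares, the limma mean and its 95% interval in black, and an asterisk in the genotype's colour where the mean passed. Gabra3 1436957, Gabra4, Gabra5, Gabrb2 1450319 and Gabrd 1449980 lie left of 0 in all 6 mice, and Gabrb1 lies right of 0 in CTRL mice alone.

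The β subunits, which complete the GABA-binding site, were less uniform. Gabrb1 at probe set 1419719 had tail ratios of −0.02, −0.25 and −0.10 in TgCPEB4∆4 mice, against 0.73, 0.18 and 0.76 in CTRL mice. In the deposited values all 3 TgCPEB4∆4 mice were negative and all 3 CTRL mice positive. The TgCPEB4∆4 mean turned to 0.11 after quantile normalization again and to 0.05 with each array centred on its median. The CTRL mean of 0.55 ± 0.15 passed (adjusted p = 0.0126) but not without CTRL mouse 3 (0.45, adjusted p = 0.0817) or with only CTRL mice in the fit (adjusted p = 0.0547), and the TgCPEB4∆4 mean of −0.12 ± 0.15 did not pass (adjusted p = 0.536). The long-tail level minus the total RNA level of the same mouse was −0.02, −0.40 and −0.10 in TgCPEB4∆4 mice, against 0.56, 0.00 and 0.50 in CTRL mice. The groups did not overlap, with CTRL mouse 2 close to the highest TgCPEB4∆4 mouse. Gabrb1 thus lay toward long tails in CTRL mice, whereas its head-to-head neighbour Gabra4 lay toward short tails.

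Gabrb2 was read by 5 probe sets that did not give a single answer. Probe set 1450319 lay toward short tails, with tail ratios of −0.63, −0.83 and −0.64 in TgCPEB4∆4 mice and −0.21, −0.58 and −0.37 in CTRL mice. Both means passed, at −0.70 ± 0.13 in TgCPEB4∆4 mice (adjusted p = 0.00824) and −0.39 ± 0.13 in CTRL mice (adjusted p = 0.0290). The CTRL call was lost when the arrays were quantile-normalized again (−0.11, adjusted p = 0.505) or centred on their medians (−0.20, adjusted p = 0.236), and without TgCPEB4∆4 mouse 1, CTRL mouse 2 or CTRL mouse 3 (adjusted p = 0.0530, 0.126 and 0.0933). It was also lost with the fractions unpaired (adjusted p = 0.0835) and with only CTRL mice in the fit (adjusted p = 0.0952). This probe set also stood below its total RNA level in both fractions. Its long-tail level minus its total RNA level in the same mouse was −1.02, −1.29 and −1.34 in TgCPEB4∆4 mice and −0.89, −0.85 and −0.80 in CTRL mice. Probe set 1429685 lay the other way in CTRL mice, with ratios of −0.08, −0.09 and 0.11 in TgCPEB4∆4 mice and 0.61, 0.22 and 0.48 in CTRL mice. Its CTRL mean of 0.44 ± 0.13 passed (adjusted p = 0.0190), though not without CTRL mouse 1 or 3 (adjusted p = 0.0706 and 0.0833) or with only CTRL mice in the fit (adjusted p = 0.0730). Its TgCPEB4∆4 mean of −0.02 ± 0.13 did not pass (adjusted p = 0.903). The remaining 3 Gabrb2 probe sets had means from −0.08 to 0.00 in TgCPEB4∆4 mice and from −0.19 to 0.20 in CTRL mice, and none passed. One of them, 1428205, carries the suffix that marks probes shared with other sequences. Which Gabrb2 transcripts each probe set reads was not tested.

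Gabrd encodes the δ subunit, which takes the place of γ in tonic receptors. At probe set 1449980 its tail ratios were −0.55, −0.73 and −0.56 in TgCPEB4∆4 mice, against −0.85, −1.06 and −1.18 in CTRL mice. Every mouse lay toward short tails, and the genotypes did not overlap. Both means passed, at −0.61 ± 0.13 in TgCPEB4∆4 mice (adjusted p = 0.0110) and −1.03 ± 0.13 in CTRL mice (adjusted p = 0.000660). In CTRL mice that is a factor of 2.04 toward short tails. Relative to total RNA of the same mouse, the short-tail level was higher by 0.63, 0.62 and 0.71 in TgCPEB4∆4 mice and by 0.76, 0.61 and 0.74 in CTRL mice. Total RNA of TgCPEB4∆4 mice 1 and 2 was not above the highest nonspecific control at this probe set. The long-tail level minus the total RNA level was 0.07, −0.11 and 0.15 in TgCPEB4∆4 mice, against −0.09, −0.45 and −0.44 in CTRL mice. The other Gabrd probe set, 1457763, had means of 0.38 ± 0.17 in TgCPEB4∆4 mice and 0.30 ± 0.17 in CTRL mice, of opposite sign, and neither passed. Under other settings its TgCPEB4∆4 mean did pass toward long tails. These were median centring (0.56, adjusted p = 0.0441), rescaled tail ratios (0.42, adjusted p = 0.0474) and only TgCPEB4∆4 mice in the fit (adjusted p = 0.0488). It also passed without TgCPEB4∆4 mouse 3 (0.62, adjusted p = 0.0345), and the CTRL mean passed with median centring (0.49, adjusted p = 0.0377). With Gabrd's probe sets averaged, the TgCPEB4∆4 tail ratio was −0.12 (adjusted p = 0.438). Probe set 1457763 read 5.95 to 6.19 in total RNA of TgCPEB4∆4 mice and 6.29 to 6.51 in that of CTRL mice. That was below the highest nonspecific control on all 6 total RNA arrays, so it gives no level for Gabrd there. In the short-tail fraction it was above that control on 2 of 3 TgCPEB4∆4 and 3 of 3 CTRL arrays. In the long-tail fraction it was above on 3 of 3 TgCPEB4∆4 and 2 of 3 CTRL arrays.

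Across the 15 probe sets, 0 passed toward long tails and 5 toward short tails in TgCPEB4∆4 mice, where 12.7% and 19.1% of all 27022 probe sets did. In CTRL mice 3 passed toward long tails and 5 toward short tails, where 27.6% and 35.4% of all probe sets did. The 5 toward short tails belonged to 4 genes in each genotype and were the same probe sets: both of Gabra4, and those of Gabra5, Gabrb2 1450319 and Gabrd 1449980. The median tail ratio of the 15 was −0.08 in TgCPEB4∆4 mice and 0.05 in CTRL mice, against −0.11 and −0.07 over all probe sets. Without TgCPEB4∆4 mouse 1 or mouse 2, 0 of the 15 and 0 of all 27022 passed in TgCPEB4∆4 mice. The means stayed negative: without mouse 1 they were −0.75 for Gabra4 1429330, −0.96 for Gabra4 1433707, −0.91 for Gabra5, −0.74 for Gabrb2 1450319 and −0.65 for Gabrd 1449980, and without mouse 2 they were −0.59, −0.94, −0.65, −0.64 and −0.56. After quantile normalization again, Gabrb2 1450319 was the 1 probe set of those 5 that still passed in TgCPEB4∆4 mice (adjusted p = 0.0365), while Gabra2 1421738 passed toward long tails (adjusted p = 0.0376). In CTRL mice Gabra4, Gabra5 and Gabrd 1449980 passed without any 1 of the 6 mice.

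**Figure D3:**
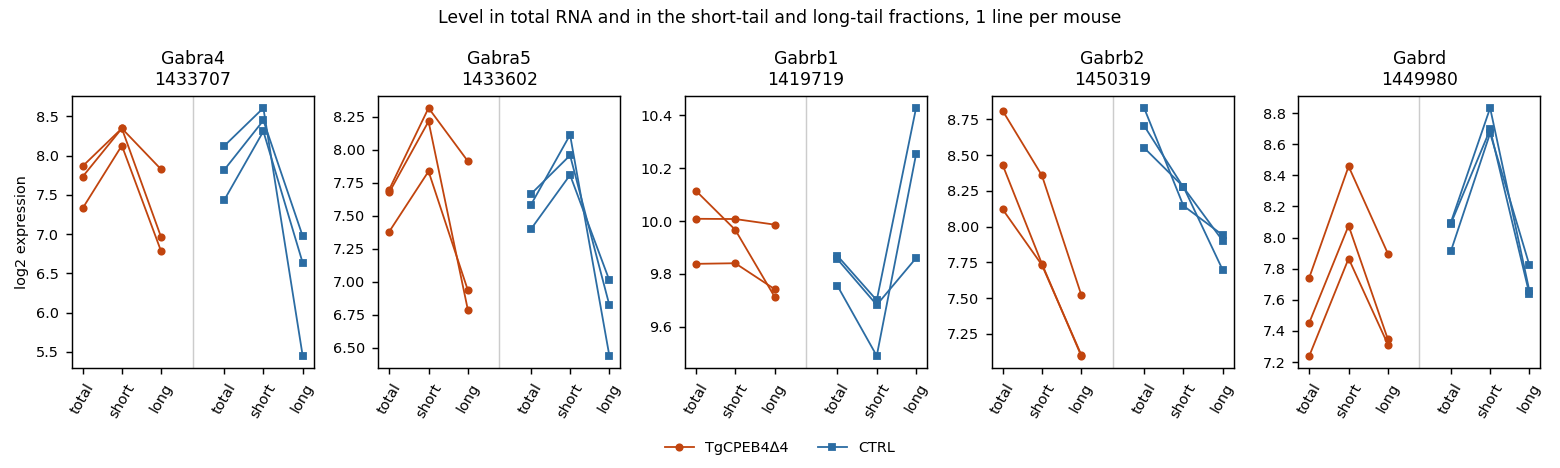
Log2 level (vertical axis, a separate scale in each panel) in total, short-tail and long-tail RNA for 1 probe set each of Gabra4, Gabra5, Gabrb1, Gabrb2 and Gabrd, 1 line per mouse, TgCPEB4∆4 mice left and CTRL mice right in each panel. Gabra4 1433707, Gabra5 1433602 and Gabrd 1449980 peak in the short-tail fraction in all 6 mice. Gabrb2 1450319 steps down from total RNA to the long-tail RNA, and Gabrb1 bends upward at the long-tail fraction only in the CTRL mice. Total RNA of Gabra4 1433707 was not above the highest nonspecific control in TgCPEB4∆4 mouse 1 and CTRL mouse 3. Among probe sets not drawn, the short-tail level was below total RNA for Gabra4 1429330 in CTRL mouse 1 (−0.05). For Gabrd 1457763 it was below in 2 of 3 TgCPEB4∆4 and 3 of 3 CTRL mice.

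The first comparison between genotypes asked whether subunit mRNA levels in total RNA differed between TgCPEB4∆4 and CTRL mice. None of the 15 probe sets passed (lowest adjusted p = 0.423), nor did any of the 27022 (0.0% called, with 2935 at an unadjusted p under 0.05). The largest difference was in Gabrd. Probe set 1449980 read 7.24, 7.45 and 7.74 in TgCPEB4∆4 mice, against 7.91, 8.09 and 8.10 in CTRL mice. The groups did not overlap, and the difference was −0.55 ± 0.14 (95% interval −0.88 to −0.23, unadjusted p = 0.00400, adjusted p = 0.423). Of the TgCPEB4∆4 arrays, 2 were below their highest nonspecific control at this probe set. Receptors that pair α4 with δ are abundant in striatal medium spiny neurons, but Gabrd was not measured by cell type here. The mean level of the markers of these neurons was also lower in all 3 TgCPEB4∆4 mice (8.72 to 8.91, against 8.95 to 9.11 in CTRL mice). Of the 9 markers, 6 had a lower and 3 a higher mean in TgCPEB4∆4 mice, and 0 passed. Per array, 6 to 7 of the 9 were above the highest nonspecific control in TgCPEB4∆4 mice and 7 to 8 in CTRL mice. The part of these neurons in the Gabrd difference was not tested. In tissue RNA, fewer cells of a type and less RNA per cell cannot be told apart.

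Gabra2 followed in size. Probe set 1443865 read 10.31, 10.55 and 10.57 in total RNA of TgCPEB4∆4 mice and 10.75, 10.85 and 10.81 in CTRL mice, a difference of −0.33 ± 0.11 (adjusted p = 0.425) without overlap. Probe set 1421738 of Gabra2 also did not overlap, at −0.14 ± 0.10 (adjusted p = 0.595). In all, 4 of the 15 probe sets, 2 each of Gabra2 and Gabrd, were lower in every TgCPEB4∆4 mouse than in any CTRL mouse, though Gabrd 1457763 was below the highest nonspecific control on all 6 of these arrays, and 0 were higher in every one, where 7.3% and 11.1% of all probe sets were. The 15 probe sets were not independent readings, since 5 of the 7 genes had several of them, all read in the same 6 mice. Of the 15 differences 13 were negative, with a median of −0.15 against 0.02 over all probe sets. The exceptions were Gabra5 at 0.04 ± 0.13 and Gabrb1 at 0.16 ± 0.11, and Gabra5 turned to −0.01 with each array centred on its median. The 5 Gabrb2 probe sets ran from −0.24 to −0.15, with 95% intervals that all included 0.

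**Figure D4:**
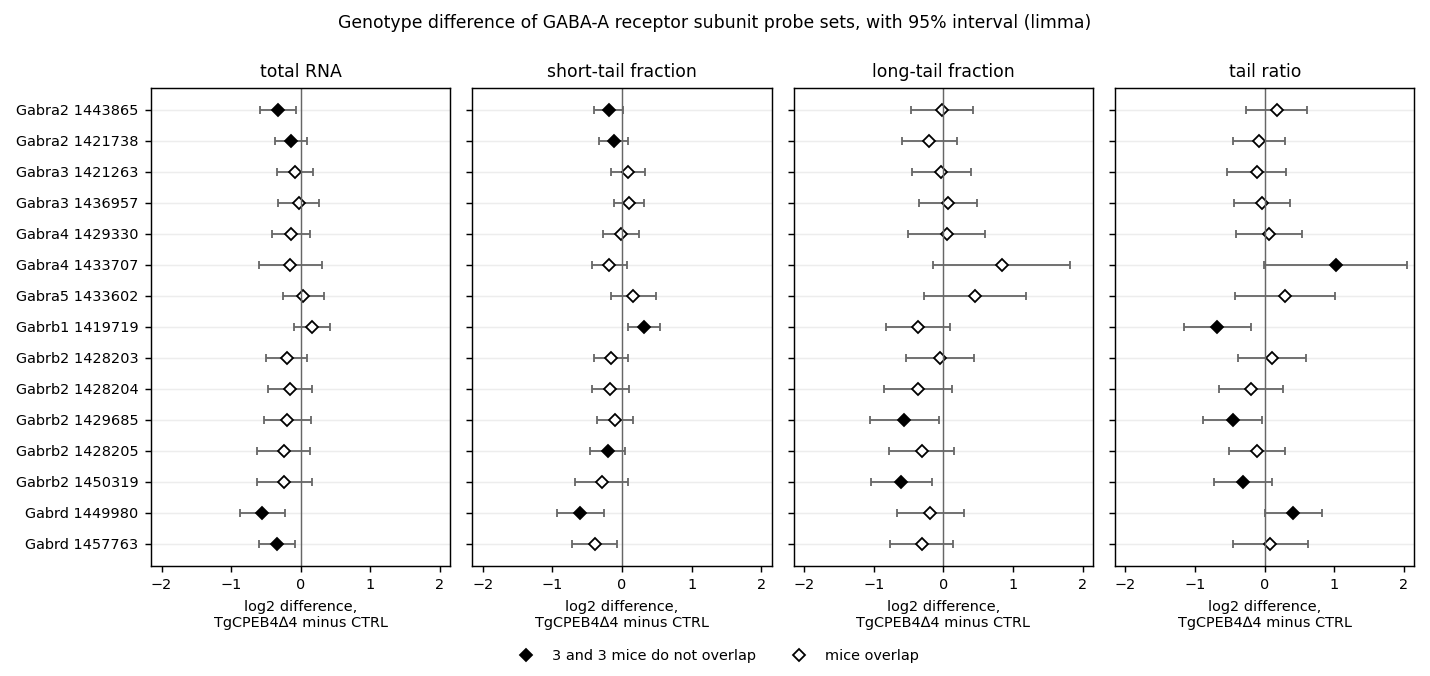
Difference between genotypes (horizontal axis, log2, TgCPEB4∆4 minus CTRL) of the 15 subunit probe sets in total RNA, both tail fractions and the tail ratio, with limma's 95% interval. Filled diamonds mark probe sets whose 3 TgCPEB4∆4 and 3 CTRL mice did not overlap; none of the differences passed.

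In the short-tail fraction none of the 15 probe sets passed either (lowest adjusted p = 0.179; 0.0% of all 27022, with 4466 at an unadjusted p under 0.05). Gabrd 1449980 read 7.87, 8.08 and 8.46 in TgCPEB4∆4 mice, against 8.67, 8.69 and 8.83 in CTRL mice. The difference of −0.60 ± 0.15 (adjusted p = 0.179) was close to that in total RNA, and it passed without TgCPEB4∆4 mouse 3 (−0.76, adjusted p = 0.0329). Gabrb1 went the other way, with 10.01, 9.97 and 9.84 in TgCPEB4∆4 mice, against 9.70, 9.68 and 9.49 in CTRL mice, a difference of 0.31 ± 0.10 (adjusted p = 0.213) without overlap. In this fraction the 8 astrocyte markers averaged 9.79 to 10.58 in TgCPEB4∆4 mice and 9.62 to 9.74 in CTRL mice. In the long-tail fraction they were also higher, at 9.62 to 10.48 in TgCPEB4∆4 mice and 9.24 to 9.42 in CTRL mice. There the Gabrb1 difference was −0.37 ± 0.20 (adjusted p = 0.356). The part of astrocytes in the Gabrb1 differences was not tested. In the short-tail fraction 4 of the 15 probe sets were lower without overlap (10.5% of all) and 1 was higher (14.1% of all). The 4 were both Gabra2 probe sets, Gabrb2 1428205 and Gabrd 1449980.

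In the long-tail fraction the differences were wider but their errors were too, and none of the 15 passed (lowest adjusted p = 0.281; 0.0% of all 27022, with 4454 at an unadjusted p under 0.05). Gabrb2 had both of the non-overlapping differences. Probe set 1450319 read 7.10, 7.52 and 7.10 in TgCPEB4∆4 mice, against 7.94, 7.70 and 7.90 in CTRL mice, a difference of −0.60 ± 0.19 (adjusted p = 0.281). Probe set 1429685 read 9.59, 9.92 and 10.01 in TgCPEB4∆4 mice, against 10.67, 10.08 and 10.46 in CTRL mice, a difference of −0.56 ± 0.22 (adjusted p = 0.292). Thus 2 of 15 were lower without overlap and 0 were higher, where 10.3% and 14.1% of all probe sets were. With all 18 arrays in 1 fit and mouse as a random block, both Gabrb2 differences passed (adjusted p = 0.0294 for 1450319 and 0.0272 for 1429685) in a fit whose single estimate of the spread covers all preparations, and 4677 of all probe sets passed there. Gabra4 1433707 had the largest difference, 0.84 ± 0.43 (adjusted p = 0.335), and it was 0.38 without CTRL mouse 1.

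The last comparison asked whether the tail ratio differed between the genotypes. None of the 15 probe sets passed (lowest adjusted p = 0.371; 0.0% of all 27022, with 3621 at an unadjusted p under 0.05). Gabrb1 had a difference of −0.68 ± 0.21 (95% interval −1.16 to −0.19, unadjusted p = 0.0119, adjusted p = 0.371), from the negative ratios of all 3 TgCPEB4∆4 mice and the positive ratios of all 3 CTRL mice given above. It passed without CTRL mouse 2 (−0.87, adjusted p = 0.0324), a setting in which 2487 of all probe sets passed. For Gabra4 1433707 the ratios were −1.35, −1.39 and −0.52 in TgCPEB4∆4 mice and −3.16, −1.47 and −1.68 in CTRL mice. The groups did not overlap, and the difference of 1.02 ± 0.45 (adjusted p = 0.373) was 0.49 without CTRL mouse 1. Gabrd 1449980 differed by 0.41 ± 0.18, Gabrb2 1429685 by −0.46 ± 0.18 and Gabrb2 1450319 by −0.31 ± 0.18, all without overlap. That made 3 lower and 2 higher of 15 without overlap, where 8.57% and 9.66% of all probe sets were.

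The spread of tail ratios over all probe sets differed between mice. Its SD was 0.61, 0.62 and 0.39 in TgCPEB4∆4 mice and 1.19, 0.59 and 0.86 in CTRL mice. When the tail ratios of each mouse were rescaled to 1 common SD, the difference was −0.59 for Gabrb1 (adjusted p = 0.303), 0.31 for Gabra4 1433707 (adjusted p = 0.561), 0.08 for Gabrd 1449980 (adjusted p = 0.900), −0.34 for Gabrb2 1429685 (adjusted p = 0.430) and −0.58 for Gabrb2 1450319 (adjusted p = 0.312). The differences of Gabra4 and Gabrd toward 0 in TgCPEB4∆4 mice were thus smaller after rescaling, that of Gabrb1 was nearly as large, and that of Gabrb2 1450319 was larger.

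Of the other GABA-A subunit genes, 8 had annotated probe sets, 12 in all, and 1 of the 12 passed the filter on low values. It was Gabrg3 probe set 1422187, which reads the γ3 subunit next to Gabra5 on chromosome 7. Its tail ratios were 0.91, 0.46 and 0.70 in TgCPEB4∆4 mice and 0.81, 0.82 and 1.07 in CTRL mice. Both means passed toward long tails, at 0.69 ± 0.14 in TgCPEB4∆4 mice (adjusted p = 0.00997) and 0.90 ± 0.14 in CTRL mice (adjusted p = 0.00122), opposite to its neighbour Gabra5. Its total RNA level was 8.88, 8.75 and 8.92 in TgCPEB4∆4 mice and 8.80, 8.70 and 8.80 in CTRL mice, a difference of 0.08 ± 0.10 (adjusted p = 0.763). None of the probe sets of Gabra6, Gabrg1, Gabre and Gabrq, which also neighbour the 7 genes, passed the filter.

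A list of 37 genes that make, transport, anchor or regulate GABA receptors and GABA had 31 genes tested, each by its probe set with the highest mean. In TgCPEB4∆4 mice 1 passed toward long and 3 toward short tails, where 6.5% and 20.5% of 11974 genes did. In CTRL mice 5 passed toward long and 10 toward short tails, where 20.5% and 39.9% did. The chloride importer Slc12a2 had a tail ratio of −0.86 ± 0.13 in TgCPEB4∆4 mice and −0.70 ± 0.13 in CTRL mice. Rdx encodes radixin, which anchors α5 receptors outside synapses, and it had −1.16 ± 0.29 in TgCPEB4∆4 mice and −1.79 ± 0.29 in CTRL mice, the same direction as Gabra5. Gabarap, which binds γ subunits and takes part in receptor traffic, had −0.73 ± 0.19 in TgCPEB4∆4 mice and −1.36 ± 0.19 in CTRL mice. The scaffold gene Dlgap1 lay toward long tails, at 0.51 ± 0.13 in TgCPEB4∆4 mice and 0.73 ± 0.13 in CTRL mice. All these means passed. Shisa7, a GABA-A receptor auxiliary subunit, passed in CTRL mice at 0.82 ± 0.13 (adjusted p = 0.00145). None of the 31 passed between genotypes in any preparation or in the tail ratio. The smallest p-values in total RNA belonged to Trak2, a trafficking adaptor (0.58 ± 0.13, adjusted p = 0.423), and Kctd16, an auxiliary subunit of GABA-B receptors (−0.37 ± 0.10, adjusted p = 0.423). The median tail ratio of the 31 was 0.02 in TgCPEB4∆4 mice and −0.11 in CTRL mice, against −0.17 and −0.18 over all genes.

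The genes whose levels ran most like each subunit over the 18 arrays were found among 11966 genes outside the family, by Pearson correlation of the probe sets with the highest means. The arrays share 6 mice and 3 preparations, so these values describe the pattern across preparations as much as across mice. Gabra5 was most like Thoc1 (r = 0.98) and Lamtor3 (r = 0.97), and Gabra4 like Nckap1 (r = 0.97) and Cdc5l (r = 0.94). Gabrb2 was most like AI593442 (r = 0.95) and Parm1 (r = 0.92). Gabrd was most like Drd2 (r = 0.92), a dopamine receptor gene of striatal medium spiny neurons, and Sema3a (r = 0.91). Gabrb1 was most like Epb41l2 (r = 0.91) and Msi2 (r = 0.89), Gabra2 like Gm2115 (r = 0.84) and Prkcb (r = 0.83), and Gabra3 like Slc25a22 (r = 0.81) and Stard9 (r = 0.78).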

How the data were processed

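Levels were measured on 18 single-colour Affymetrix arrays, 3 preparations from each of 3 mice per genotype. The deposited numbers are on a log2 scale, 1 for each probe set and array, and the authors used RMA, per the submitters' processing notes. RMA normalizes between arrays, but the deposited distributions were not identical, with medians of 6.42 to 6.59 and SDs of 1.70 to 2.00 over all probe sets. Per the labels' protocols, RNA was amplified by PCR and equal cDNA masses were labelled, so values are shares within a preparation. The design text names another array than the probe set names do, and the annotation of those names was used.

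Of 45141 rows, 104 controls were left out, and the filter on low values required a mean over the 18 arrays above the 40th percentile (5.95). The highest of 23 nonspecific control probe sets per array served as a detection bound. limma 3.58.1 in R 4.3.3 was run over all 27022 probe sets, for each preparation on its 6 arrays and for the tail ratio on 6 mice, after tests on simulated data. The simulated noise was independent between arrays, so those tests do not cover the unequal spread of the 6 mice. Fractions are paired within a mouse by the labels. Deviations of its short-tail and long-tail arrays from the group means correlated at 0.716, 0.333 and 0.427 in TgCPEB4∆4 mice and at −0.066, 0.162 and −0.025 in CTRL mice.

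The subunit genes, gene lists and alternatives were chosen with earlier results of these data known. The rule for named genes took all probe sets of the 7 genes, list genes with up to the 4 smallest p in each comparison, and 2 correlated genes per subunit. Precision rests on 3 mice per genotype, and the labels do not say whether mice shared a litter.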

Additional observations from a re-analysis of the deposited data

Results flagged for a closer look

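Gabrb1 drew attention because its tail ratio had opposite signs in the 2 genotypes, −0.02, −0.25 and −0.10 in TgCPEB4∆4 mice, against 0.73, 0.18 and 0.76 in CTRL mice. The difference was tested in the same limma fit and was −0.68 (adjusted p = 0.371), so it did not pass. It arose from both fractions, with a difference of 0.31 in the short-tail fraction and of −0.37 in the long-tail fraction, neither of which passed, and Gabrb1 is read by 1 probe set, so no second probe set of the gene bears on it. The TgCPEB4∆4 mean was 0.11 after quantile normalization again and 0.05 with median centring, so its sign depended on the scaling.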

How the results depend on the processing

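The count of subunit probe sets that passed was 0 in each of the 4 genotype comparisons under most alternatives. It was 2 in the long-tail fraction with all 18 arrays in 1 fit and mouse as a random block, 0 to 1 in the short-tail fraction when 1 mouse was left out (1 without TgCPEB4∆4 mouse 3, where 359 of all probe sets passed) and 0 to 1 for the tail-ratio difference (1 without CTRL mouse 2, where 2487 of all passed). The tail ratio of TgCPEB4∆4 mice passed for 5 subunit probe sets, and for 2 after quantile normalization again, 8 with arrays centred on their medians, 8 with tail ratios rescaled to 1 SD, 2 genes with a gene's probe sets averaged, and 0 to 6 when 1 mouse was left out. In CTRL mice the count was 8, and 4 genes with a gene's probe sets averaged, 4 with only the mice of that genotype, and 4 to 7 when 1 mouse was left out. Scaling also moved the balance over all probe sets. In TgCPEB4∆4 mice 3441 passed toward long and 5160 toward short tails, against 2766 and 2220 after quantile normalization again and 5579 and 2806 with median centring. In CTRL mice the split was 7465 and 9569, against 8364 and 7369, and 10176 and 7592. These scalings moved the median tail ratio of all probe sets to 0.015 and 0.069 in TgCPEB4∆4 mice (−0.109 as deposited) and to 0.084 and 0.124 in CTRL mice (−0.068 as deposited). The replicate number does not pair mice across genotypes (different animals), and with it as a replicate block 0 subunit probe sets passed in each genotype comparison, with 0.245 as the lowest adjusted p for the tail-ratio difference (Gabrb1). The cause of these changes was not tested, other than that leaving out a mouse leaves fewer samples.

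Of the recomputed values 60 changed sign, 37 lost their call and 19 gained one, and 1135 did neither. After quantile normalization again and after median centring, the total RNA difference of Gabra5 was −0.001 and −0.0139. In the same order, the long-tail difference was −0.1358 and −0.02 for Gabra3 1436957 and −0.087 and −0.0414 for Gabra4 1429330. The tail ratio in TgCPEB4∆4 mice was 0.1088 and 0.0539 for Gabrb1, 0.0838 and 0.0954 for Gabrb2 1428203, 0.2282 and 0.1768 for Gabrb2 1428204, 0.2231 and 0.1554 for Gabrb2 1429685, and 0.1995 and 0.1413 for Gabrb2 1428205. The tail ratio in CTRL mice was 0.1559 for Gabra3 1436957 after quantile normalization, and 0.0921 and 0.0034 for Gabrb2 1428203 under both. The tail-ratio difference of Gabrb2 1428203 was −0.0083 after quantile normalization. With the mean of a gene's probe sets, Gabra3 had a long-tail difference of 0.0179 and tail ratios of −0.0962 in TgCPEB4∆4 mice and −0.0216 in CTRL mice, and Gabrb2 had a tail ratio of 0.0259 in CTRL mice and a difference of −0.1947. With tail ratios rescaled, the differences of Gabra2 1421738, Gabra4 1429330 and Gabra5 were 0.0197, −0.2283 and −0.1296, and the TgCPEB4∆4 tail ratio of Gabrb2 1428204 was 0.0001.

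When 1 mouse was left out, signs changed within these ranges. In total RNA they were −0.1174 to 0.069 for Gabra3 1436957, −0.3283 to 0.0176 for Gabra4 1433707 and −0.0366 to 0.1409 for Gabra5. In the short-tail fraction it was −0.1067 to 0.0685 for Gabra4 1429330. In the long-tail fraction they were −0.1602 to 0.1318 for Gabra2 1443865, −0.1396 to 0.0893 for Gabra3 1421263, −0.0348 to 0.1494 for Gabra3 1436957, −0.1553 to 0.2115 for Gabra4 1429330 and −0.2401 to 0.0494 for Gabrb2 1428203. The tail ratio in TgCPEB4∆4 mice ran over −0.022 to 0.0237 for Gabrb2 1428204, −0.0868 to 0.0111 for Gabrb2 1429685 and −0.1075 to 0.015 for Gabrb2 1428205. In CTRL mice it ran over −0.0585 to 0.1861 for Gabra2 1443865 and −0.3078 to 0.0018 for Gabrb2 1428203. The tail-ratio difference ran over −0.103 to 0.0473 for Gabra3 1436957, −0.0486 to 0.1989 for Gabra4 1429330, −0.0842 to 0.2255 for Gabrb2 1428203 and −0.0783 to 0.3201 for Gabrd 1457763. Signal limits the probe sets near the nonspecific controls, among them Gabra5, Gabra4 1433707 and both of Gabrd.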
